A study of Mus musculus with 60 samples.

Results

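Immediate early genes are transcribed within minutes of a growth factor or stress signal, without new protein synthesis. The members followed here were 10 such genes and AP-1 subunits: the Fos family (Fos, Fosb, Fosl1 and Fosl2), the Jun family (Jun, Junb and Jund), and Egr1, Ier2 and Nr4a1. They were taken by symbol from the gene column of the authors' deposited table, which listed 41018 genes. All 10 had a value in every comparison, as had 24905 of the genes listed.

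RNA came from duodenum organoids, epithelial cultures grown from mouse intestine in Matrigel with Intesticult medium, and was measured by QuantSeq 3′ mRNA sequencing, which counts reads near the polyadenylated end of each transcript. The labels put 60 samples into 20 groups of 3. The degron arm held 36 samples of genotypes WT dTAG, HOM CDK2-dTAG and HOM CDK5-dTAG (CDK2-dTAG and CDK5-dTAG hereafter), each kept for 6 or 24 h with DMSO or with dTAG-13 at 250 nM. dTAG-13 is a small molecule that brings proteins carrying a degron tag to an E3 ubiquitin ligase, so that the tagged kinase is destroyed. The knockout arm held 24 samples of genotypes WT cKO and HOM CDK2 cKO, each in DMSO or 1 uM 4-OHT for 24 or 48 h. 4-OHT, the active form of tamoxifen, is used to switch on Cre recombinases fused to an estrogen receptor. The labels do not say which Cre the knockout lines carry, whether WT cKO carries one, whether a line is a clone, or whether a group's 3 replicates came from different cultures or mice; the p-values then cover only the spread between these samples. The deposited table compared agent with DMSO at the same time in 10 comparisons, and the later with the earlier DMSO group in 3 (WT dTAG and CDK2-dTAG at 24 against 6 h, WT cKO at 48 against 24 h). It gives no value per sample, so depth and replicate spread are unknown. Standard errors (SE) were derived from each deposited log2 fold change and its p. An exact test needs values per sample, so p-values of differences and means rest, through a normal approximation, on the authors' own p-values.

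AP-1 is a dimer of basic leucine zipper proteins: Jun proteins pair with each other or with Fos proteins, while Fos proteins do not pair stably among themselves. The dimers bind DNA sites near genes of proliferation, stress and differentiation. ERK acting through serum response factor induces Fos and Egr1, JNK phosphorylates c-Jun, and in the intestine c-Jun is known as a partner of Wnt signalling in crypt cells. CDK2, bound to cyclin E or A, drives entry into and passage through S phase, and CDK5, bound to its own activators p35 or p39, is best known from neurons.

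A table of comparisons holds no expression levels, so the epithelial identity of the organoids could be looked at only through the precision of markers. All 16 epithelial markers on the list had a derived SE of at most 0.5 on the log2 scale in the median comparison, beside 0 of 6 fibroblast markers, 1 of 7 immune markers and 1 of 7 endothelial and neural markers with a value. Of the 24905 genes with a value in every comparison, 9526 met this limit. Transcripts of the targeted kinases were not called in any comparison. The degron acts on protein, and the labels do not give the deleted part of Cdk2, which 3′ reads may not cover, so these values do not check the labels. In the authors' deposited table, Cdk2 differed by -0.35 after 24 h of 4-OHT in HOM CDK2 cKO (deposited p = 0.103) and by -0.64 after 48 h (deposited p = 0.00456, FDR p = 0.996), beside -0.53 after 48 h in WT cKO (deposited p = 0.0125, FDR p = 0.997).

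No member passed the deposited FDR p of 0.05 in any comparison: 0 of 130 values did, and the smallest member FDR p was 0.989. Few genes of any kind did. The share of all genes called was 0.0803% in the WT dTAG time comparison, 0.0361% in the CDK2-dTAG time comparison, 0.0642% after 24 h of 4-OHT in WT cKO, 0.0241% after 48 h of 4-OHT in HOM CDK2 cKO, and 0% in the other comparisons. At an unadjusted p under 0.05, 0 of 100 member values of the agent comparisons passed. For dTAG-13 at 6 and 24 h, the share of all genes under that limit was 0.799% and 1.08% in WT dTAG, 0.903% and 1.07% in CDK2-dTAG, and 0.952% and 1.99% in CDK5-dTAG. For 4-OHT at 24 and 48 h it was 2.98% and 1.83% in WT cKO, and 1.3% and 2.21% in HOM CDK2 cKO. Between times in DMSO, 2 of 10 members had an unadjusted p under 0.05 in WT dTAG, 0 in CDK2-dTAG and 0 in WT cKO, where 3.28%, 2.72% and 1.42% of all genes had one.

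**Figure D1:**
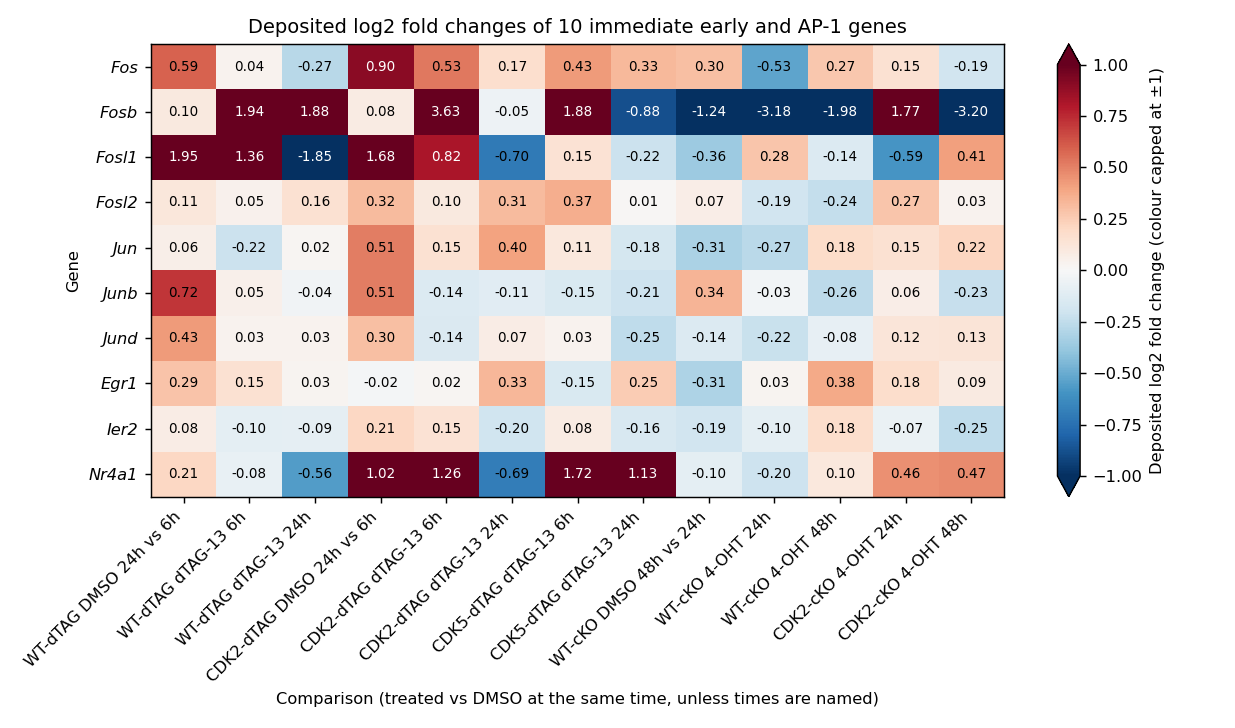
Deposited log2 fold changes of the 10 members (rows) in the 13 comparisons (columns), with colour capped at 1 in either direction. In the time comparison of WT dTAG all 10 members were positive, beside 66.9% of all genes with a value. Among genes with a median SE of at most 0.5, 49.8% were positive. The Fosb value there, 0.10, equals the median of all genes. The widest values lie in the rows of Fosb, Fosl1 and Nr4a1, the genes with the widest errors.

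The members fell into a precisely and an imprecisely measured set. The median derived SE over the 13 comparisons was 0.18 for Jund and Ier2, 0.22 for Jun, 0.28 for Junb, 0.29 for Fosl2, 0.32 for Egr1 and 0.48 for Fos. It was 0.94 for Nr4a1, 0.96 for Fosl1 and 2.75 for Fosb. The first 7 met the limit of 0.5 used here for a well measured gene, as did 9526 of all genes. Across the agent comparisons, 60 of 70 intervals (95%) of these 7 members lay wholly within a 2-fold change, or 85.7%, beside 84.8% for all well measured genes. All 10 agent intervals were that narrow for Fosl2, Jun, Junb, Jund and Ier2, and 9 of 10 for Egr1, but only 1 of 10 for Fos. None of the intervals of Fosb, Fosl1 and Nr4a1 was. Fosb values of 0.10 and 0.08 in the DMSO time comparisons of WT dTAG and CDK2-dTAG equalled the median of all genes there. So did its -0.05 after 24 h of dTAG-13 in CDK2-dTAG. Another imprecise gene, Ccdc85b, had the same values in those time comparisons, so they carry little information about Fosb.

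**Figure D2:**
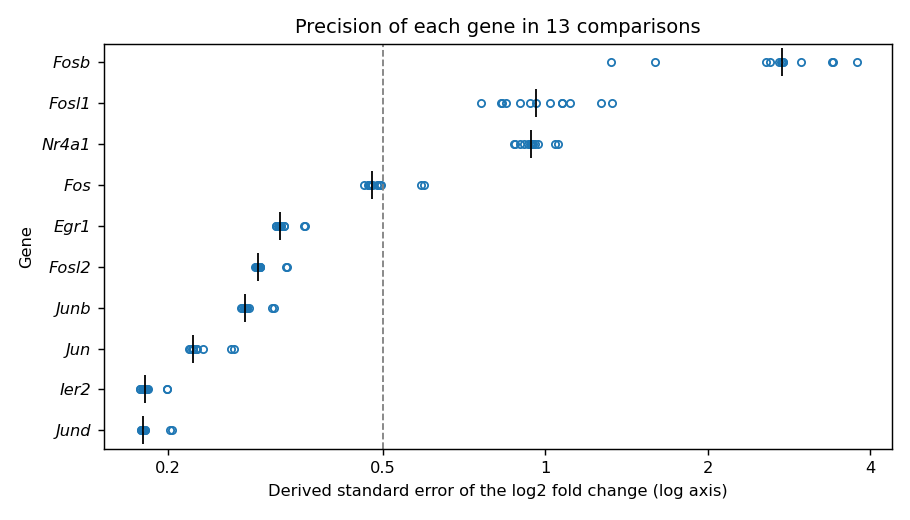
Derived SE of the log2 fold change for each member (log axis), with a circle for each of the 13 comparisons and a bar at the median. The dashed line marks 0.5, and Fosb, Fosl1 and Nr4a1 lie to its right; in Jund, Ier2, Jun, Junb, Fosl2, Egr1 and Fos the 2 circles set apart on the right are the comparisons that use the 6 h DMSO group of CDK2-dTAG.

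Among the Jun proteins, the dimer's core, Jund is held to be the constitutive member and Junb an early responder that can dampen c-Jun. In the authors' deposited table the log2 fold change of Jund under dTAG-13 was 0.03 at 6 h and 0.03 at 24 h in WT dTAG. In CDK2-dTAG it was -0.14 at 6 h and 0.07 at 24 h, and in CDK5-dTAG it was 0.03 at 6 h and -0.25 at 24 h. Under 4-OHT it was -0.22 at 24 h and -0.08 at 48 h in WT cKO, and 0.12 and 0.13 at these times in HOM CDK2 cKO. The value farthest from 0, in CDK5-dTAG at 24 h, had an interval of -0.60 to 0.09 and a deposited p of 0.153. Junb lay between -0.26 (WT cKO, 48 h of 4-OHT) and 0.06 (HOM CDK2 cKO, 24 h of 4-OHT) in the same 10 comparisons, with a smallest deposited p of 0.344.

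Jun, which encodes c-Jun, lay between -0.27 after 24 h of 4-OHT in WT cKO and 0.40 after 24 h of dTAG-13 in CDK2-dTAG. This last value, with an interval of -0.04 to 0.84, had the smallest p of Jun under an agent in the authors' deposited table (p = 0.0750, FDR p = 0.996). The same comparison gave 0.02 in WT dTAG, and the difference of 0.38 between the genotypes had an interval of -0.24 to 1.00.

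Of the Fos proteins, Fos was 0.04 at 6 h and -0.27 at 24 h of dTAG-13 in WT dTAG, 0.53 and 0.17 in CDK2-dTAG, and 0.43 and 0.33 in CDK5-dTAG. Under 4-OHT it was -0.53 at 24 h and 0.27 at 48 h in WT cKO, and 0.15 and -0.19 in HOM CDK2 cKO. All 4 values of the kinase-tagged lines were thus positive, yet each interval included 0 and the smallest deposited p of Fos under an agent was 0.285. Fosl2, a Fos protein without the strong activation domain of c-Fos, stayed between -0.24 and 0.37 under the agents. Fosl1, which encodes Fra-1, ranged from -1.85 (WT dTAG, 24 h of dTAG-13) to 1.36 (WT dTAG, 6 h), and Fosb from -3.20 (HOM CDK2 cKO, 48 h of 4-OHT) to 3.63 (CDK2-dTAG, 6 h of dTAG-13). These wide values carried errors to match: the smallest deposited p was 0.0849 for Fosl1 and 0.212 for Fosb.

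Egr1, a zinc finger factor downstream of ERK, lay between -0.15 and 0.38 under the agents, and Ier2, a nuclear immediate early protein, between -0.25 and 0.18. Nr4a1, an orphan nuclear receptor, had its highest agent value in the authors' deposited table in CDK5-dTAG after 6 h of dTAG-13 (1.72, p = 0.0630, FDR p = 1.00), followed by 1.26 at 6 h in CDK2-dTAG and 1.13 at 24 h in CDK5-dTAG. In WT dTAG it was -0.08 at 6 h and -0.56 at 24 h. The difference between CDK5-dTAG and WT dTAG at 6 h was 1.80 with an interval of -0.81 to 4.41.

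The responses of each kinase line and its wild type to the agent were compared directly, as was the change from 6 to 24 h in DMSO between CDK2-dTAG and WT dTAG, which involves no agent. In these 7 differences over 10 members, 0 of 70 had an unadjusted p under 0.05 and all 70 intervals included 0. No gene passed an adjusted p of 0.05 (normal test, Benjamini-Hochberg over all genes) in any of the 7 (0% of all genes). Unadjusted, under dTAG-13 at 6 and 24 h, 1.13% and 1.32% of all genes passed for CDK2-dTAG and 1.06% and 2.05% for CDK5-dTAG. For HOM CDK2 cKO at 24 and 48 h the shares were 1.78% and 1.27%, and for CDK2-dTAG between times in DMSO 0.984%. The intervals bounded the difference to less than 2-fold for 25 of 49 values of the well measured members. For Jund, the tightest, the differences ran from -0.29 (CDK5-dTAG, 24 h) to 0.34 (HOM CDK2 cKO, 24 h). For Ier2 the difference with the smallest p was -0.43 after 48 h of 4-OHT in HOM CDK2 cKO, with an interval of -0.94 to 0.08.

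**Figure D3:**
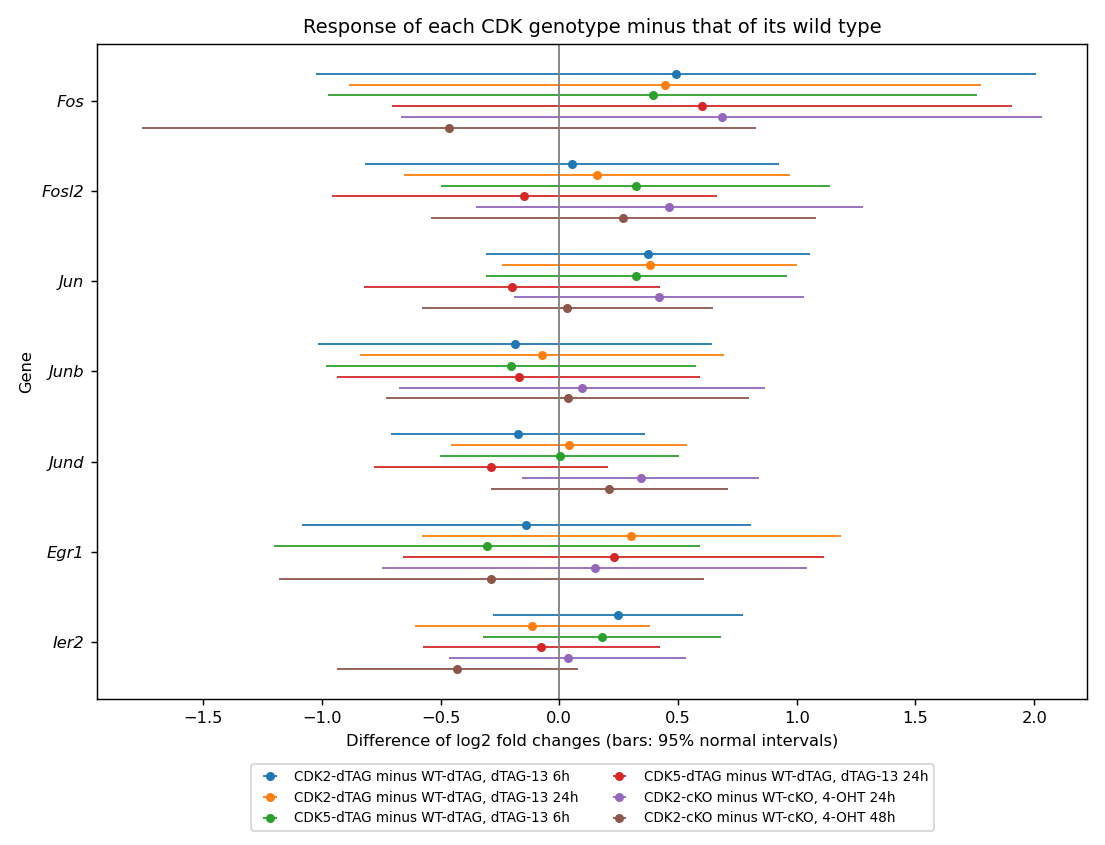
Log2 fold change under the agent in each kinase line minus that in its wild type at the same time, for the 7 well measured members, with 95% normal intervals. Every interval crosses 0, and those of Fos are the widest.

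Between times under the same agent, 1 of 50 member differences had an unadjusted p under 0.05, and 0% of all genes passed the adjusted p. The deposited log2 fold change of Fosl1 under dTAG-13 in WT dTAG was 1.36 at 6 h and -1.85 at 24 h, a difference of -3.21 with an interval of -6.24 to -0.18 (p = 0.0379 from the authors' values, adjusted p = 1.00). In this difference 1.07% of all genes had an unadjusted p under 0.05. In the other differences between times the share was 1.12% in CDK2-dTAG, 1.52% in CDK5-dTAG, 1.76% in WT cKO and 1.3% in HOM CDK2 cKO.

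Members passed a test only on a mean of changes with time in culture, which pooled 24 libraries. No member was called in the deposited time comparisons, as under the agents. Agent effects were not pooled in this way, so calls on this mean and under the agents differ in precision and are not a like comparison. The deposited table compares 24 with 6 h in DMSO only, but adding the agent comparison at 24 h and subtracting that at 6 h gives the same contrast under dTAG-13, and in this sum the DMSO libraries cancel. WT dTAG and CDK2-dTAG thus gave 4 time changes on separate libraries, 24 in all. The table holds no DMSO time comparison of CDK5-dTAG, so that line could not be added. This calculation was added after the table had been seen.

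Jun, Junb and Jund were called higher at 24 than at 6 h, though the Jun call was lost under several of the alternatives given below. On the mean of the 4 changes, Jund rose by 0.42 (SE 0.09, adjusted p = 9.12e-04, normal test on the authors' values with Benjamini-Hochberg adjustment over all genes), or 1.34-fold with an interval of 1.18 to 1.52. Junb rose by 0.60 (SE 0.14, adjusted p = 0.00337 from the authors' values), or 1.51-fold with an interval of 1.24 to 1.84. Jun rose by 0.41 (SE 0.12, adjusted p = 0.0304 from the authors' values), or 1.32-fold with an interval of 1.13 to 1.55. All 3 had positive values in 4 of 4 changes, which is no separate support, because they were called on the mean of these changes. The smallest, that of Jun in DMSO in WT dTAG, was 0.06 with an interval of -0.38 to 0.50. These 3 of 10 members compare with 1.68% of all genes called higher and 2.19% called in either direction. Many of all genes were too imprecise to be called. With adjustment over the 9526 well measured genes alone, 645 of them were called in either direction, among them these 3 of 7 well measured members.

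The Jund changes were 0.43 in DMSO and 0.43 under dTAG-13 in WT dTAG, and 0.30 and 0.52 in CDK2-dTAG. The Junb changes were 0.72 and 0.63 in WT dTAG, and 0.51 and 0.54 in CDK2-dTAG. The intervals of the 4 values overlapped for each gene. The Jun changes were 0.06 in DMSO and 0.30 under dTAG-13 in WT dTAG, but 0.51 and 0.76 in CDK2-dTAG. Tested directly, the mean Jun change was 0.46 larger in CDK2-dTAG than in WT dTAG, with an interval of -0.005 to 0.92 (p = 0.0524 from the authors' values, adjusted p = 1.00), so a larger change in CDK2-dTAG was not shown. Within WT dTAG alone the mean of DMSO and dTAG-13 called 0 members and 0.883% of all genes, and within CDK2-dTAG alone 0 members and 0.313% of all genes. Under dTAG-13 alone 0 members were called in either line, beside 0.217% of all genes in WT dTAG and 0.0723% in CDK2-dTAG.

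The Jund call held when any of the 4 changes was left out. Without the WT dTAG change in DMSO, Junb had an adjusted p of 0.0651. Jun had an adjusted p of 0.0964 without WT dTAG under dTAG-13, 0.177 without CDK2-dTAG in DMSO and 0.518 without CDK2-dTAG under dTAG-13, so its call rested on each of these 3. With a Student in place of the normal quantile Jun had an adjusted p of 0.0702, and with Bonferroni adjustment 0 of the 10 members were called.

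**Figure D4:**
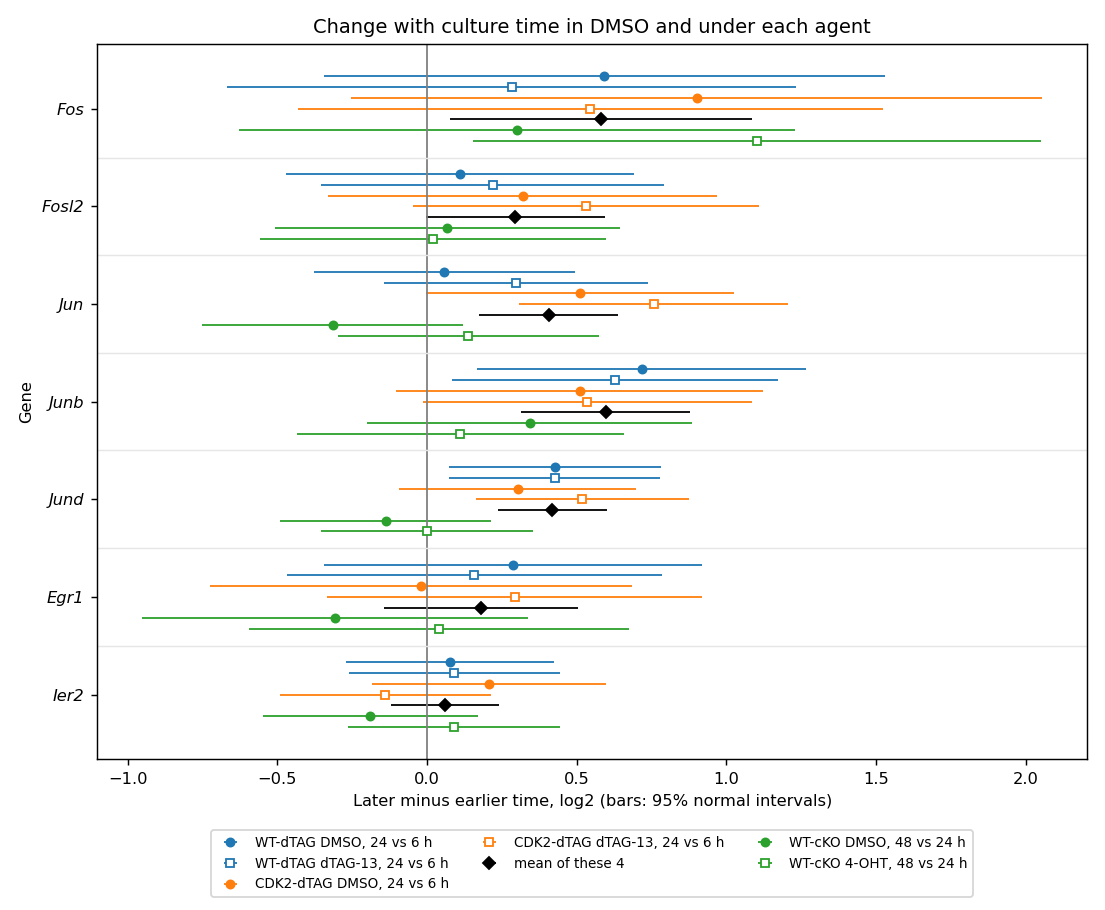
Later minus earlier time for the 7 well measured members, log2 with 95% normal intervals, in DMSO (filled circles) and under the agent (open squares), with the mean of the 4 changes from 6 to 24 h (black diamonds). Junb and Jund lie to the right of 0 in all 4 of these changes and Ier2 lies around 0; from 24 to 48 h in WT cKO, Jund lies at -0.14 and 0.00.

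The other members were not called on this mean. Fos stood at 0.58 (interval 0.08 to 1.08, adjusted p = 0.359 from the authors' values), positive in 4 of 4 changes. Fosl2 stood at 0.29 (interval 0.00 to 0.59, adjusted p = 0.543 from the authors' values). Egr1 stood at 0.18 and Ier2 at 0.06, the latter with an interval of -0.12 to 0.24. Nr4a1 stood at 0.01 with an interval of -0.95 to 0.96, Fosl1 at 0.63 with -0.47 to 1.74, and Fosb at -0.85 with -3.76 to 2.07. The median of the members was 0.35, beside 0.07 for all genes and -0.01 for well measured genes. Fewer cells of a type and less RNA per cell cannot be told apart in such bulk samples, nor can time in culture and the day of harvest.

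From 24 to 48 h in WT cKO, 0 members were called (0% of all genes in DMSO, 0% under 4-OHT). Jund stood at -0.14 in DMSO and 0.00 under 4-OHT, Junb at 0.34 and 0.11, and Jun at -0.31 and 0.14, all with intervals that included 0. Fos stood at 0.30 in DMSO and at 1.10 under 4-OHT, where the interval was 0.15 to 2.05 (p = 0.0229 from the authors' values, adjusted p = 0.998). Its level relative to DMSO at 24 h was -0.53 after 24 h and 0.57 after 48 h of 4-OHT.

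**Figure D5:**
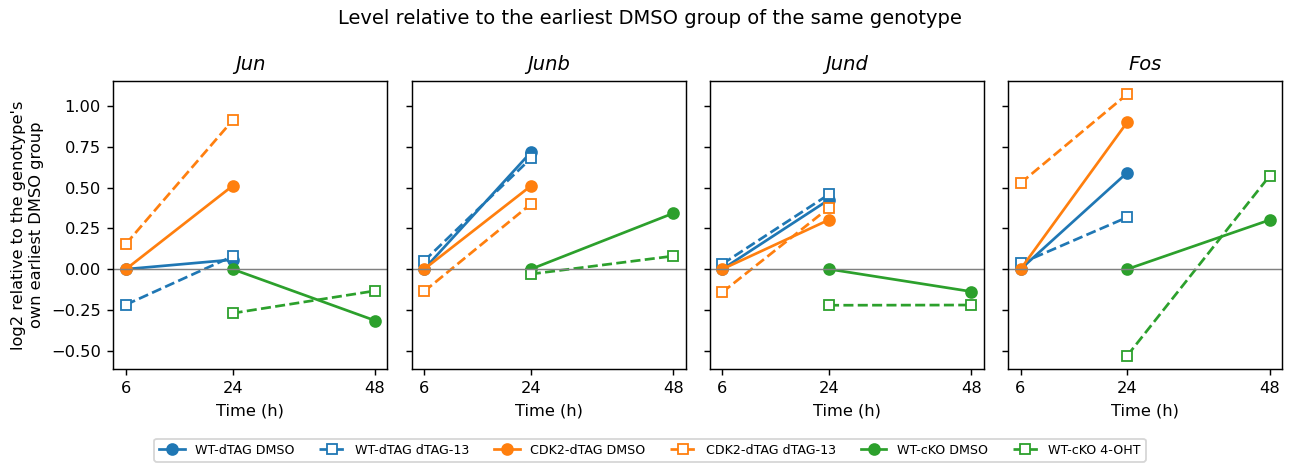
Log2 level of Jun, Junb, Jund and Fos in each group relative to the earliest DMSO group of the same genotype, against time in hours, in DMSO (solid, filled) and under the agent (dashed, open). Junb and Jund lines climb from 6 to 24 h with little distance between agent and DMSO, while the Jun lines of CDK2-dTAG end at 0.51 and 0.91 and those of WT dTAG at 0.06 and 0.08.

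Promoters are shown for Jun and Junb, which were called higher at 24 h, and for Fos, the usual partner of Jun proteins, which had a time change of similar size without a call. Windows run from 250 bases before to 50 after the RefSeq start (assembly GRCm38.p6), 5′ to 3′ on the gene's strand: Jun chr4:95052173-95052472 (minus), Junb chr8:84978699-84978998 (minus) and Fos chr12:85473640-85473939 (plus). Capitals mark TGACG, the core of a cAMP response element, or TGACATCA, the variant AP-1 site known from the Jun promoter, each on either strand, and TATAA on the gene's strand.
Jun: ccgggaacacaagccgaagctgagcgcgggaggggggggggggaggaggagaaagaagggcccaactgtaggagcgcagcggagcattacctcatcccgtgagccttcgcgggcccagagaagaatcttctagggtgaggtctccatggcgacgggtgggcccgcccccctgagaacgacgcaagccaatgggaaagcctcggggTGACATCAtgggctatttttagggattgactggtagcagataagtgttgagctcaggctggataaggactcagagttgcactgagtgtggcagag
Junb: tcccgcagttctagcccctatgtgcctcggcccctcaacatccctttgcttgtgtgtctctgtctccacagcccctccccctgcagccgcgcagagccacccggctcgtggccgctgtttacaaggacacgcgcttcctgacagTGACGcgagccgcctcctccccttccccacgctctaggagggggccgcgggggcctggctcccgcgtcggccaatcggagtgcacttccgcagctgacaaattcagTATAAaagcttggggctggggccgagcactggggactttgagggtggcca
Fos: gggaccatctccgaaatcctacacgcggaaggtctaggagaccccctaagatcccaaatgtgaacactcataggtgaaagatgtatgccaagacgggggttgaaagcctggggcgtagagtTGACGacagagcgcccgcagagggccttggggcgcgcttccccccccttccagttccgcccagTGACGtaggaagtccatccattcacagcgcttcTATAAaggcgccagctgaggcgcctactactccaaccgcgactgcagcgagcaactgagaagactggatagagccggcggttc

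A match is a description, not a bound site. Jun held TGACATCA once, at -45 from its start, as 3.62% of 32851 RefSeq windows did in either orientation. Fos held TGACG at -129 and -66 and TATAA at -33, and Junb held TGACG at -106 and TATAA at 0, its RefSeq start lying at -30 from the GENCODE start. TGACG stood in 20.8% and TATAA in 17.5% of all windows. RefSeq windows were matched for 7 of 10 members. Fosl1, Egr1 and Ier2 had no entry, and the Jund window ended upstream of the GENCODE gene start. Nr4a1 held 4 TGACG, as at least 4 stood in 0.231% of windows, and Fosb held 1, while Fosl2 held none. The RefSeq start lay 12577 bases downstream of the GENCODE gene start for Nr4a1 and 671 for Fosl2, so these windows do not describe that start.

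In the GENCODE annotation of GRCm38, all transcripts of Jun, Jund and Ier2 had 1 exon. Genes on the opposite strand overlapped Junb (Prdx2), Jun (Junos), Jund (Gm11175) and Fosl1 (Ccdc85b). The sources used here do not say whether counting used strand, so reads of such pairs may not be told apart. On the mean of the 4 time changes Prdx2, a peroxiredoxin, stood at 0.03 (SE 0.11) beside the 0.60 of Junb, and Junos at 1.29 (SE 0.95) beside the 0.41 of Jun. Gm11175 had no value.

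Of 32 other immediate early genes on the list, 4 were called higher and 1 lower on the mean of the 4 changes from 6 to 24 h, with a list median of 0.25. On that mean, 1.68% of all genes were called higher and 2.19% in either direction. Atf3, a stress-induced bZIP factor that pairs with Jun proteins, rose by 1.78 (SE 0.20, adjusted p = 4.48e-16 from the authors' values), Ier3 by 0.71, Btg1, an antiproliferative gene, by 0.60 and Klf6 by 0.41. Per1, a clock gene that is also induced acutely, fell by 0.74 (adjusted p = 0.00249 from the authors' values). Atf3 was also the only gene of the lists to pass in the authors' deposited table, with 1.69 in WT dTAG (FDR p = 0.0126) and 1.83 in CDK2-dTAG (FDR p = 0.0326) for 24 against 6 h in DMSO. Under the agents, 0 of these 32 genes were called in any of the 10 comparisons.

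The further lists were read on the same mean, on which 1.68% of all genes were called higher and 2.19% in either direction. Among 11 partner and related bZIP genes with a value, Maf rose by 0.68 (adjusted p = 0.0490 from the authors' values) and Atf4, the effector of the integrated stress response, by 0.31 (adjusted p = 0.00999). Of 16 feedback genes of ERK and JNK signalling, Dusp8, a phosphatase of JNK and p38, rose by 1.08 (adjusted p = 2.87e-05 from the authors' values) and Dusp4, a nuclear phosphatase of ERK and JNK, by 0.71 (adjusted p = 0.0184). None of 8 serum response factor and ternary complex genes was called, and of 19 MAP kinase cascade genes Map2k3, a kinase of p38, fell by 0.28 (adjusted p = 0.0202 from the authors' values). None of these genes passed the deposited FDR p under an agent.

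Other genes moved over the same interval. Of 11 heat shock genes, 4 were called lower on the mean of the 4 changes, beside 2.19% of all genes called in either direction. Of these 11, 0 were positive, with a list median of -0.28 beside 0.07 for all genes and -0.01 for well measured genes. Hsph1 fell by 0.58, Dnajb1 by 0.39, Dnaja1 by 0.36 and Hspa8 by 0.28. Of 16 epithelial markers, 2 were called higher and 1 lower, beside the same share of all genes. Muc2, the goblet cell mucin, rose by 0.64 (adjusted p = 0.00623 from the authors' values). Of the caudal homeobox factors, which set intestinal identity, Cdx2 rose by 0.27 and Cdx1 fell by 0.58 (adjusted p = 0.0222 and adjusted p = 3.98e-09 from the authors' values). No fibroblast, immune, endothelial or neural marker was called. Only 0 of 6 fibroblast, 1 of 7 immune, and 1 of 7 endothelial and neural markers were well measured, so a change could have been missed. The part of cell composition or handling in the changes of Jun, Junb and Jund was not tested.

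Correlations between members were positive in 18 of 21 pairs. The share among pairs of other genes was not worked out, so this count does not show that the members moved together. Most member values lay within their errors, which lowers a correlation, so a low one does not show that 2 members moved apart. Over the 21 pairs of the 7 well measured members, the correlation of log2 fold changes across the 13 comparisons had a median of 0.29 and ran from -0.25 to 0.65, the highest being Junb with Jund; comparisons share libraries, so these values are descriptions. Among 9519 other well measured genes, the pattern most like that of Junb was that of 2210407C18Rik (r = 0.967), then Aldoc and Bsg (r = 0.935 and 0.923). For Jund it was Ppp2r3d (r = 0.914), then Pkm and Lmo7, for Jun Vav3 (r = 0.877), and for Fos 1700020I14Rik (r = 0.865). For Fosl2 it was Myh14 (r = 0.914), for Egr1 Pmepa1 (r = 0.875) and for Ier2 Ttf1 (r = 0.889). Each of these genes was picked as the most alike of 9519 over only 13 comparisons. Such picking gives a high r by itself, and shared regulation was not tested.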

How the data were processed

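The labels place 60 mouse duodenum organoid samples in 20 groups of 3. Libraries were made with a QuantSeq 3′ kit (forward), per the labels' protocols, and the submitters' processing notes name Salmon with no version. Build, strand setting, normalization and statistical test are not given in what was used here. The deposited file, per the file headers, holds 13 comparisons, each with the log2 fold change, its linear ratio, and p-values (unadjusted, FDR and Bonferroni). Recomputed Benjamini-Hochberg values deviated from the deposited ones by at most 1.99e-13.

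Dividing the log2 fold change by the normal quantile that its two-sided p implies gave the SE, which assumes a Wald-type test, with 95% normal intervals. Differences and means were tested with a two-sided normal test and Benjamini-Hochberg adjustment over all genes, at 0.05. Their scripts were tested on simulated data (Python 3.11.15, scipy 1.17.1). A well measured gene had a median SE of at most 0.5. The design planned no test of the mean of 4 changes. Members and gene lists were chosen with earlier results of these data known. Named were all members, and from other lists the genes called in any comparison or on the mean, else those with the smallest p, and the genes most like each member by Pearson r. Ccn1, Ccn2, Mrtfa and Mrtfb were matched by older symbols. Positions come from GENCODE on GRCm38, matched by symbol. Alternatives were Bonferroni adjustment, well measured genes only, centring, and a Student quantile.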

Additional observations from a re-analysis of the deposited data

How the results depend on the processing

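Of 253 alternatives, 244 left the calls as they were, 0 reversed a called value, and 9 lost a call. All 9 lay on the mean of the 4 changes from 6 to 24 h, whose alternatives were chosen after seeing the data. Most of the 253 had no call to lose. They include 143 centrings, which carry no test, and the deposited comparisons and differences, in which no member was called. The 244 thus say little about the calls on the mean of the 4 changes. With Bonferroni adjustment, 0 members were called on that mean, the adjusted p of Jund being 0.171. With a Student quantile, Jun had an adjusted p of 0.0702, while Junb (0.0360) and Jund (0.0213) passed. The adjusted p over all alternatives ran from 3.93e-04 to 0.171 for Jund, from 0.00143 to 0.837 for Junb and from 0.0134 to 1.00 for Jun. Adjusted over well measured genes alone, the smallest member p in the deposited comparisons was 0.472, for Junb in WT dTAG between times. Centring on well measured genes moved values by at most 0.02 and changed the sign of 0 member values. With well measured members only, the median of the members in WT dTAG at 24 h of dTAG-13, a value with no test, changed sign, from -0.01 to 0.02.

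The deposited table holds no counts, so depth is unknown, and a missing call bounds a member only by its interval. The SE was 1.11 times that of the CDK2-dTAG comparison of dTAG-13 and DMSO at 24 h in the 2 comparisons with the 6 h DMSO group of CDK2-dTAG; the cause was not tested. No paired analysis was possible because the file has no values per sample. Leaving out each replicate was not run for the same reason.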
